A study of Mus musculus with 12 samples.

Results

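The 10 genes described here are the Notch receptors Notch1, Notch2, Notch3 and Notch4, the ligands Jag1, Dll1 and Dll4, and the target genes Hey1, Heyl and Hes1. They were chosen by symbol from a table of 25171 loci measured in 12 mouse hearts, and all 10 were found and passed the filter on low counts in every comparison. The transgene of the study derives from NOTCH2NLC, a human relative of Notch2 with a GGC repeat in its 5′ untranslated region (UTR), and the question was whether the receptors of the mouse and their pathway differed between transgenic and control hearts. One gene passed the test in a comparison of transgenic with control hearts: Dll4 was lower in EIIa-tg than in EIIa-ctl hearts. Its call was lost in a fit that blocked by replicate number and in a fit of all 12 hearts. Those fits called 0.00671% and 1.43% of all genes, beside 17% in the main fit. No receptor and none of the 3 target genes passed the test in either model. Notch1 in the Myh6 model stood just outside, at an adjusted p of 0.052 in edgeR's quasi-likelihood test. Among 18 alternative settings of that comparison, Notch1 passed in 7, Heyl in 2, and Notch3 and Dll4 in 1 each. In the EIIa comparison Dll4 kept its call in 7 of 18 and Notch4 passed in 2.

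Each of the 4 groups held 3 hearts, labelled as biological replicates. All mice carried NOTCH2NLC with 98 GGC repeats behind a loxP-stop-loxP cassette at the Rosa26 site. EIIa-tg hearts came from postnatal day 30 mice with EIIa-Cre, which is active in nearly all tissues from the early embryo, and EIIa-ctl hearts came from mice of that age without EIIa-Cre. Myh6-tg and Myh6-ctl hearts came from postnatal day 90 mice labelled with the same genotype, the conditional transgene with Myh6-creERT2, a tamoxifen-dependent Cre that the Myh6 promoter drives in cardiomyocytes. From postnatal day 60 the Myh6-tg mice received 3 injections of tamoxifen at 75 mg/kg, and the Myh6-ctl mice received corn oil only. EIIa-Cre and expression of the transgene therefore cannot be told apart in the EIIa model, nor can tamoxifen treatment and that expression in the Myh6 model. Model and age cannot be told apart in a comparison between the models. Genotype names in the labels differ among the 3 EIIa-tg hearts, which were grouped by their titles, and the extraction text of the labels names brain although the tissue label is heart.

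Totals ranged from 38343106 to 50969834 counts per heart, so that a floor of 3 counts lies between 0.0589 and 0.0782 CPM, the counts scaled to a common library total. The 10 genes had between 161 counts (Dll1) and 4012 counts (Notch1) in a heart, far above that floor. Replicate 1 of every group held 4224 to 7307 counts of Y-linked genes and the other hearts 0 to 2. Esr1, whose ligand-binding part belongs to tamoxifen-dependent Cre proteins, stood at 1067 to 2023 CPM in Myh6-ctl, at 1.31 to 3.03 CPM in Myh6-tg and at 0.364 to 1.24 CPM in the EIIa groups. Both Myh6 groups carry the same Cre in their labels, so Esr1 goes against the label of the Myh6-tg hearts, which are called the hearts labelled Myh6-tg below. Whether those hearts carried the Cre, or expressed the transgene, was not tested, since the count table used here has no row for the transgene. The share of counts from 13 protein-coding mitochondrial genes did not overlap between the groups of either model, at 34.2% to 36.7% in EIIa-ctl and 28.5% to 32.3% in EIIa-tg, and at 31.8% to 38.3% in Myh6-ctl and 15.5% to 18.6% in the hearts labelled Myh6-tg. Its part in the values below was not tested beyond a fit without these genes. Cardiomyocyte markers were high in all hearts, from 11049 to 49569 CPM summed over 10 genes, but their level differed between groups. The sum was 41125 to 49569 in EIIa-ctl and 21937.5 to 36472.5 in EIIa-tg, without overlap. It was 32223 to 42953 in Myh6-ctl and 11049 to 34429 in the hearts labelled Myh6-tg.

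Notch receptors are single-pass membrane proteins that ligands of the Jagged and Delta families on neighbouring cells activate. Activation lets ADAM proteases and then γ-secretase cut the receptor, and the freed intracellular part joins the DNA-binding protein RBPJ to switch on genes such as those of the Hes and Hey families. In the heart and its vessels, Notch1, Notch4 and Dll4 are known mainly from endothelial cells, Notch3 and Heyl from the mural cells around vessels, and Jag1 from both. The pathway is best known there for artery formation, for sprouting of capillaries and for the development of valves and of the trabeculae of the ventricle. In bulk tissue, fewer cells of a type and less RNA per cell cannot be told apart.

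The mouse genes themselves hold only short GGC runs. They are shown because the transgene is defined by its GGC repeat and because the run in Notch2 lies in the same kind of place, the 5′ UTR. In the GENCODE M21 transcripts of the 10 genes, the longest run was 3 units, in Notch2 and in Jag1, and the main transcripts of the other 8 genes had runs of 2. The GRCm38 windows are chr3:98013538-98013567 (plus strand) for Notch2 and chr2:137116279-137116308 (minus strand) for Jag1, both exonic, 5′ to 3′, with the GGC run in capitals.
Notch2: gccaaacttcgGGCGGCGGCctggctgcgc
Jag1: gcgctagcagcGGCGGCGGCgtccggagtg
Reads of the human transgene could map to Notch2 if the 2 sequences are alike enough, and the part of such reads in the Notch2 values below was not tested. RefSeq promoter windows of GRCm38.p6 ran from 250 bases before to 50 after the start. No window was found for the target genes Hey1, Heyl and Hes1, so their promoters were not searched. The other 7 of the 10 genes, the receptors and ligands, had 8 windows in all. None of the 8 held TGGGAA, the core of the RBPJ motif, on either strand, against 25.6% of 32851 promoters, nor the longer GTGGGAA that contains it, against 6.38%.

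In level per length, Hes1 was the most abundant of the 10 genes, with 17.6 ± 3.67 FPKM, the deposited unit scaled to transcript length and library size (mean ± SD, n = 12 hearts). Heyl followed at 9.56 ± 3.83, Hey1 at 8.04 ± 1.53 and Dll4, the main Notch ligand of capillary endothelium, at 6.92 ± 1.31 FPKM. The receptors Notch4, Notch3 and Notch1 lay together at 5.70 ± 2.04, 5.56 ± 1.08 and 4.88 ± 1.14 FPKM, closer to each other than their spread. Jag1 had 2.64 ± 0.739 FPKM, and Notch2 and Dll1 were the lowest at 1.67 ± 0.759 and 1.63 ± 0.467 FPKM, which also did not differ beyond their spread. Notch2, the relative of the transgene, thus gave 6.57% ± 0.195 of the summed FPKM of the 4 receptors in EIIa-ctl and 8.91% ± 1.46 in EIIa-tg. Its share was 8.11% ± 1.08 in Myh6-ctl and 13.01% ± 1.55 in the hearts labelled Myh6-tg (SD, n = 3 each). Dll4 gave the larger part of the FPKM of the 3 ligands in each group, from a mean of 57.2% in EIIa-tg to 64.9% in Myh6-ctl.

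**Figure D1:**
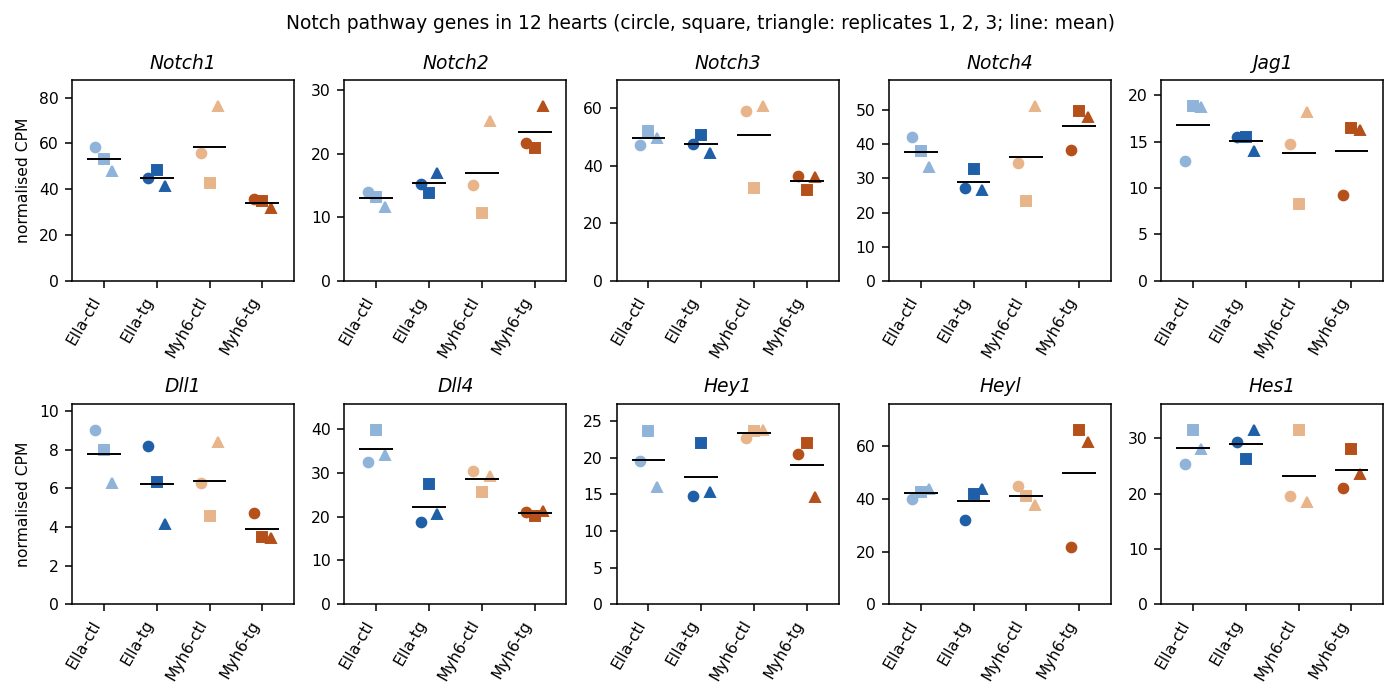
Normalised CPM of the 10 genes (vertical axes, each starting at 0) in every heart of the 4 groups, with circles, squares and triangles for replicates 1, 2 and 3 and a line at the group mean. Within each model, Dll4 lies below every control heart in EIIa-tg and in the hearts labelled Myh6-tg, Notch1 does so in the latter, and Heyl is split in those hearts, with replicate 1 at 21.6 and the others at 66.2 and 61.6.

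The first comparison asked how the ubiquitous transgene bears on the Notch genes at postnatal day 30. Dll4 had 32.5, 39.8 and 34.0 normalised CPM (CPM after scaling by TMM) in the EIIa-ctl hearts and 18.8, 27.3 and 20.6 in the EIIa-tg hearts. All 3 transgenic hearts lay below all 3 controls. The fold change was 0.626 (log2 fold change -0.67, SE 0.16, 95% interval -1.05 to -0.30), with an adjusted p of 0.031 in edgeR's quasi-likelihood test. Dll4 was the one gene of the 10 called at an adjusted p under 0.05. The test called 8.3% of the 14908 genes lower and 8.65% higher, so 1 of 10 lower and 0 of 10 higher is near the background. The thresholds of the study were an adjusted p under 0.01 with at least a 2-fold change. Applied to this edgeR test, they called 0 of the 10 genes and 0% of all genes. The paper used them with DESeq2 and reported differentially expressed genes in both models. The call of Dll4 was lost without EIIa-ctl replicate 1, 2 or 3 or without EIIa-tg replicate 1 or 3, with an adjusted p of 0.071 to 0.111. In that order, these fits called 0%, 11.7%, 0.0065%, 0% and 0.877% of all genes, beside 17% in the main fit. The loss is therefore not particular to Dll4, whose log2 fold change without 1 heart ranged from -0.86 to -0.56. The call was kept without EIIa-tg replicate 2, at 0.0032, in a fit that called 26.6% of all genes. It was also lost with all 12 hearts in one fit (0.055) and with the replicate number as a block (0.063), a fit that called 1 of 14908 genes. With replicate 1 of both groups left out, the 2 hearts with Y-linked counts, the log2 fold change was -0.62 and the adjusted p 0.210, in a fit that called 0 of 15030 genes. On the FPKM scale the groups did not overlap either, at 7.39 to 9.78 FPKM in EIIa-ctl and 4.91 to 7.09 in EIIa-tg, with an adjusted p of 0.065 in limma on log2(FPKM + 1).

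Among the receptors, Notch4, which is largely limited to endothelium, came next. It had 42.2, 38.1 and 33.4 normalised CPM in EIIa-ctl and 27.2, 32.7 and 26.8 in EIIa-tg, again without overlap. Its log2 fold change was -0.39 (SE 0.13, adjusted p = 0.070), which did not pass the threshold in edgeR. It passed in DESeq2, at an adjusted p of 0.047, and without EIIa-tg replicate 2, at 0.021. Notch4 and Dll4 were the 2 genes of the 10 with 3 hearts below all controls, beside 20.8% of all genes tested. None lay above all controls, beside 20.3%. In FPKM Notch4 overlapped, at 4.43 to 5.45 in EIIa-ctl and 4.06 to 4.86 in EIIa-tg. The same 2 had an unadjusted p under 0.05, beside 5204 of all 14908 genes tested. Notch1 had 58.6, 53.0 and 47.8 normalised CPM in EIIa-ctl and 44.8, 48.4 and 41.2 in EIIa-tg, with 1 transgenic heart inside the range of the controls. Its log2 fold change of -0.25 (SE 0.11) had an adjusted p of 0.154. Notch2 had 14.0, 13.2 and 11.6 normalised CPM in EIIa-ctl and 15.2, 13.8 and 16.9 in EIIa-tg, a log2 fold change of 0.24 (95% interval -0.05 to 0.53, adjusted p = 0.217). Notch3, the receptor of vascular smooth muscle and pericytes, had 47.1 to 52.1 normalised CPM in EIIa-ctl and 44.5 to 50.7 in EIIa-tg, with a log2 fold change of -0.06 (SE 0.10, adjusted p = 0.680).

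The other ligands and the target genes overlapped between the EIIa groups. Jag1 had 12.9 to 18.8 normalised CPM in the controls and 14.0 to 15.5 in the transgenic hearts, and Dll1 had 6.25 to 9.02 and 4.17 to 8.19. Hey1 and Heyl encode repressors of transcription that Notch induces in vessels, and their log2 fold changes were -0.19 and -0.11, at adjusted p values of 0.547 and 0.597. Hes1, a repressor that Notch induces in many tissues, had 25.3, 31.5 and 28.1 normalised CPM in EIIa-ctl and 29.4, 26.3 and 31.6 in EIIa-tg. Its 95% interval, -0.24 to 0.31, was among the narrowest of the 10. For 9 of the 10 genes the 95% interval lay inside a 2-fold change in both directions, Dll4 being the exception. The median log2 fold change of the 10 genes was -0.17, beside 0.02 over all genes. On log2(FPKM + 1), where the median of all genes was 0.16, the values of Notch3, Jag1, Hey1 and Heyl turned from negative to between 0.00299 and 0.112, and the median of the 10 genes was 0.0177.

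**Figure D2:**
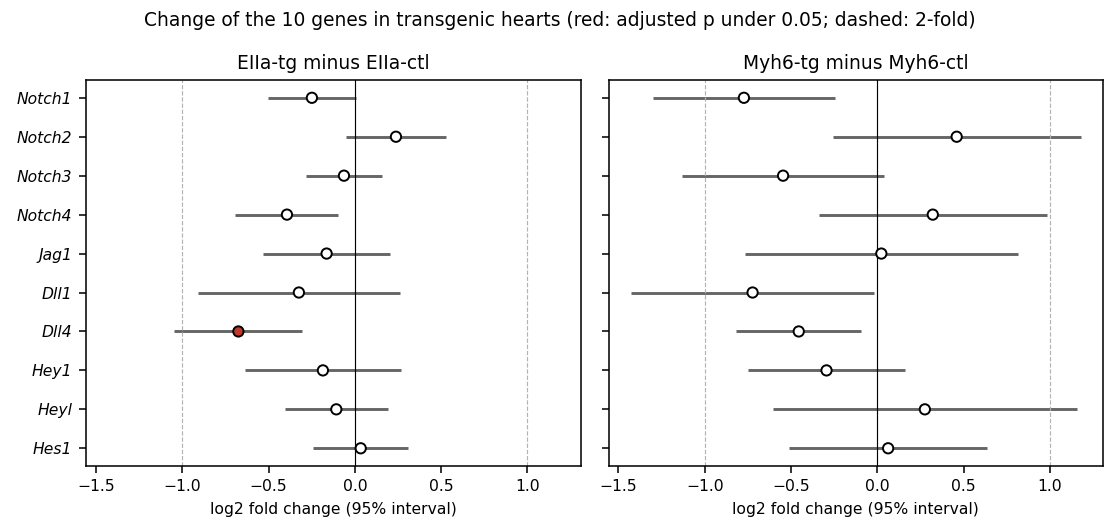
Log2 fold change (horizontal axis, points) with its 95% interval (lines) for the 10 genes in EIIa-tg against EIIa-ctl and in the hearts labelled Myh6-tg against Myh6-ctl, 3 hearts a group, with red for an adjusted p under 0.05 and dashed lines at a 2-fold change. Dll4 in the EIIa comparison is the single red point, and most intervals are wider in the Myh6 comparison, the lowest bound being -1.43 for Dll1.

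Of 14 endothelial marker genes, 4 were called lower in EIIa-tg, Tie1, Kdr, Erg and Cdh5, and none higher. Log2 fold changes were negative for 10 and positive for 4 of the 14, from -0.69 to 0.23 with a median of -0.16. The 14 markers summed to 1617 to 1827 normalised CPM in EIIa-ctl and 1396 to 1489 in EIIa-tg. Dll4 per 1000 CPM of these markers was 19.0, 21.8 and 21.04 in EIIa-ctl and 12.8, 18.4 and 14.7 in EIIa-tg, still without overlap. Notch4 on the same scale overlapped, at 20.6 to 24.6 in EIIa-ctl and 18.6 to 22.0 in EIIa-tg. Notch2 lay higher in EIIa-tg without overlap, at 7.19 to 8.18 in EIIa-ctl and 9.30 to 12.1 in EIIa-tg. So did Notch3, at 27.5 to 30.8 and 31.9 to 34.0, and Hes1, at 14.8 to 17.4 and 17.6 to 22.6. The rest of the 10 genes overlapped, and no background over all genes was computed on this scale. Of the 6 arterial endothelial markers, Sox17 was called higher and Nrp1 lower, and their sum was 156 to 176 CPM in EIIa-ctl and 135 to 150 in EIIa-tg. Mural markers summed to 1725 to 1938 CPM in EIIa-ctl and 1325 to 1722 in EIIa-tg, with Cnn1 higher and Vtn, Abcc9 and Mcam lower among 12. All 8 macrophage markers and 3 of 10 fibroblast markers were called higher in EIIa-tg, and Ryr2 was called lower among 10 cardiomyocyte markers. The cardiomyocyte markers had negative log2 fold changes for 9 and a positive one for 1, with a median of -0.66. The lists for epicardial, Schwann, adipocyte and lymphoid cells had no call in this comparison. The part of cell composition in the Notch values was not tested further.

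In the Myh6 model the question was the same for a design that places the transgene under a tamoxifen-dependent Cre of cardiomyocytes. None of the 10 genes passed an adjusted p of 0.05, where edgeR called 8.96% of 15298 genes higher and 9.38% lower. An unadjusted p under 0.05 was found for 3 of them, Notch1, Dll1 and Dll4, beside 5210 of all 15298 genes tested. All 3 had lower means in the hearts labelled Myh6-tg. At the thresholds of the study, again applied to the edgeR test, 0 of the 10 genes and 3.97% of all genes were called. The median log2 fold change was -0.14 over the 10 genes and 0.03 over all genes. By DESeq2, 1 of the 10 was called, Notch1.

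Notch1, the receptor most studied in endothelium and endocardium, had 55.7, 42.8 and 76.1 normalised CPM in Myh6-ctl and 35.8, 34.7 and 31.7 in the hearts labelled Myh6-tg. All 3 of the latter lay below all 3 controls, and the controls themselves spanned a wide range. The fold change was 0.585 (log2 fold change -0.77, SE 0.23, 95% interval -1.30 to -0.25), with an adjusted p of 0.052, just outside the threshold. It fell inside in DESeq2 (adjusted p = 0.017), with all 12 hearts in one fit (0.0075) and under 4 further choices of filter, size factors, mitochondrial genes or dispersion (0.044 to 0.046). Without Myh6-ctl replicate 2, the lowest control, the adjusted p was 0.033, and without each other heart it was 0.053 to 0.165. Dll4 had 30.4, 25.7 and 29.3 normalised CPM in Myh6-ctl and 20.9, 20.2 and 21.2 in the hearts labelled Myh6-tg, also without overlap. Its log2 fold change was -0.46 (SE 0.16, 95% interval -0.82 to -0.09, adjusted p = 0.082), which passed in the fit of all 12 hearts alone, at 0.042. Notch1, Dll4 and Hey1 had all 3 hearts below all controls, beside 19.6% of all genes tested. On the FPKM scale, whose median change over all genes was 0.34, these 3 genes overlapped between the groups and Hey1 turned to 0.0766. Notch1 then had 3.64 to 8.17 FPKM in Myh6-ctl and 4.04 to 4.31 in the hearts labelled Myh6-tg, and Dll4 had 5.53 to 7.97 and 5.96 to 7.24. The log2 fold changes on log2(FPKM + 1) were -0.29 for Notch1 (adjusted p = 0.407 in limma) and -0.0457 for Dll4 (0.871).

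Dll1, a Delta ligand expressed at a low level here, had 6.24, 4.56 and 8.39 normalised CPM in Myh6-ctl and 4.70, 3.49 and 3.44 in the hearts labelled Myh6-tg. The lowest control overlapped the highest of the latter, and the log2 fold change of -0.72 (SE 0.30) had an adjusted p of 0.138. Notch3 had 59.2, 32.4 and 60.6 normalised CPM in Myh6-ctl and 36.6, 31.5 and 36.2 in the hearts labelled Myh6-tg, so that control replicate 2 stood with those hearts. Its log2 fold change was -0.55 (SE 0.25, adjusted p = 0.172). Without Myh6-ctl replicate 2 it was -0.79, with an adjusted p of 0.033.

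Notch2 and Notch4 had higher means in the hearts labelled Myh6-tg and did not pass the test. Notch2 had 15.1, 10.7 and 25.1 normalised CPM in Myh6-ctl and 21.7, 20.98 and 27.4 in the hearts labelled Myh6-tg. The log2 fold change of 0.46 (95% interval -0.26 to 1.18, adjusted p = 0.337) leaves both no change and a 2-fold rise within its interval. Notch4 had 34.5, 23.3 and 51.1 normalised CPM in Myh6-ctl and 38.4, 49.7 and 48.1 in the hearts labelled Myh6-tg, a log2 fold change of 0.32 (SE 0.29, adjusted p = 0.470). Control replicate 3 was the highest control for both genes, inside the range of the hearts labelled Myh6-tg for Notch2 and above it for Notch4.

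Of the summed FPKM of the 4 receptors, Notch4 gave 26.3% to 30.2% in Myh6-ctl and 36.2% to 44.2% in the hearts labelled Myh6-tg. Notch1 gave 29.5% to 34.5% in Myh6-ctl and 18.8% to 23.2% in the hearts labelled Myh6-tg. Notch2 gave 7.22% to 9.31% in Myh6-ctl and 11.6% to 14.7% in the hearts labelled Myh6-tg, and Notch3 gave 29.3% to 37.0% and 22.8% to 27.9%. None of the 4 shares overlapped between the groups. The shares are parts of one sum, so a shift of one moves the others, and no background over all genes was computed. With 3 hearts a group, p under 0.05 cannot be reached in an exact permutation test, so none was run. In EIIa-tg the Notch4 share was 25.5% to 28.2% and in EIIa-ctl 29.1% to 32.4%, the other way round.

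Among the target genes, Heyl depended on a single heart. It had 44.8, 41.2 and 37.5 normalised CPM in Myh6-ctl and 21.6, 66.2 and 61.6 in the hearts labelled Myh6-tg, with replicate 1 below and the other two above every control. The log2 fold change was 0.28 (SE 0.38, adjusted p = 0.655) with all hearts and 0.63 (adjusted p = 0.024) without Myh6-tg replicate 1. That heart also stood apart in its cell markers, with 34429 CPM of cardiomyocyte markers against 14488 and 11049 in the other two, 3794 CPM of fibroblast markers against 8541 and 9387, and 2139 CPM of macrophage markers against 1001 and 973. Heyl per 1000 CPM of mural markers was 17.0 in that heart, 36.6 and 37.8 in the other two and 24.0 to 28.3 in Myh6-ctl. Cnn1 alone gave 598 and 505 of the 1809 and 1631 CPM of mural markers in the other 2. In replicate 1 it gave 19.3 of 1272 CPM, so the mural sum depends on Cnn1. The ratio without Cnn1 was not computed. Hey1 had 22.6, 23.6 and 23.8 normalised CPM in Myh6-ctl and 20.5, 22.0 and 14.6 in the hearts labelled Myh6-tg (log2 fold change -0.29, SE 0.20, adjusted p = 0.333). Hes1 had a log2 fold change of 0.06 and Jag1 of 0.02, with 95% intervals of -0.51 to 0.64 and -0.77 to 0.81. Only for 5 of the 10 genes did the interval lie inside a 2-fold change in both directions, so that for the other 5 such a change was not excluded at this spread.

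**Figure D3:**
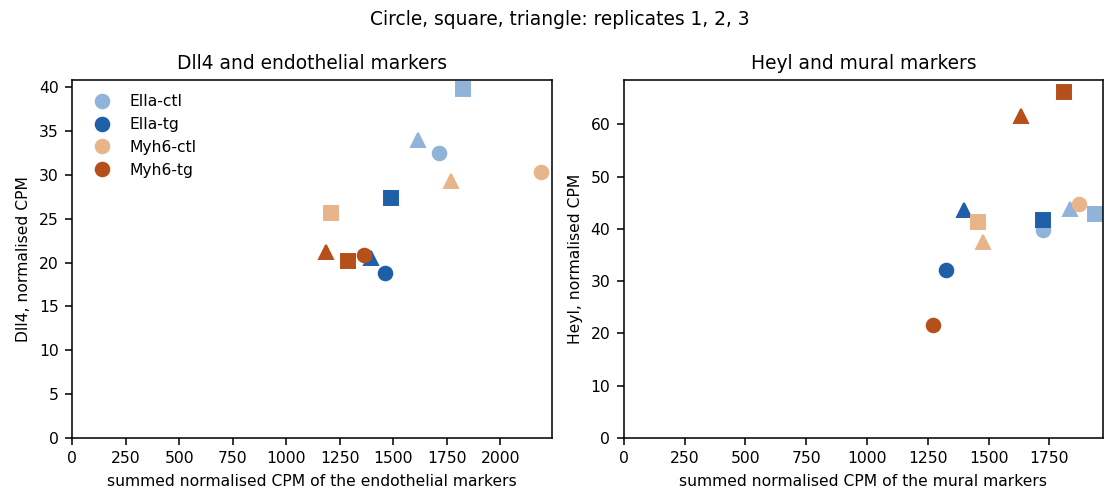
Dll4 against the summed level of 14 endothelial markers and Heyl against that of 12 mural markers, all in normalised CPM on axes from 0, with 1 point for each of 12 hearts, colours for the 4 groups and circles, squares and triangles for replicates 1, 2 and 3. In the left panel the 3 EIIa-tg hearts and the 3 hearts labelled Myh6-tg lie between 1187 and 1489 with Dll4 at 27.3 or less, as Myh6-ctl replicate 2 does at 1207 and 25.7. In the right panel the hearts labelled Myh6-tg hold both the lowest Heyl value, 21.6, and the highest, 66.2. The mural sum includes Cnn1, which stood at 598 and 505 in replicates 2 and 3 of the hearts labelled Myh6-tg.

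The endothelial marker sum was 1207 to 2189 normalised CPM in Myh6-ctl and 1187 to 1365 in the hearts labelled Myh6-tg, with overlap. Of the 14 markers Cldn5 was called higher and none lower, and the median log2 fold change was -0.48. Dll4 per 1000 CPM of endothelial markers was 13.9 to 21.3 in Myh6-ctl and 15.3 to 17.9 in the hearts labelled Myh6-tg. Notch1 was 25.4 to 43.1 and 26.3 to 27.0, so that neither was separated on this scale. Notch2 lay higher without overlap, at 6.90 to 14.2 in Myh6-ctl and 15.9 to 23.1 in the hearts labelled Myh6-tg. The rest of the 10 genes overlapped, and here too no background over all genes was computed. Mural markers had Cnn1 higher and Vtn, Myh11 and Abcc9 lower, fibroblast markers had 4 of 10 higher, and cardiomyocyte markers had 4 of 10 lower. Macrophage, arterial endothelial, epicardial, Schwann and adipocyte markers had no call, and Ms4a1 was called lower among 7 lymphocyte markers. Whether these shifts account for the Notch values was not tested.

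The change of the 10 genes was then compared between the models, in 1 fit of all 12 hearts. No gene of the 10 differed at an adjusted p under 0.05, where 1.65% of 15929 genes had a higher and 2.27% a lower change in the Myh6 model. None of the 10 had an unadjusted p under 0.05, beside 3092 of the 15929 genes. Notch4 had the widest gap, a log2 fold change of -0.39 in the EIIa and 0.32 in the Myh6 model, with a difference of 0.71 (SE 0.33, 95% interval -0.01 to 1.44, adjusted p = 0.266). Notch1 had a difference of -0.53 (SE 0.26, adjusted p = 0.288), and Dll4 one of 0.22 (SE 0.22, 95% interval -0.26 to 0.69). A call appeared for Notch3 (difference -0.73, adjusted p = 0.030) without Myh6-ctl replicate 2 and for Heyl (0.73, adjusted p = 0.040) without Myh6-tg replicate 1.

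Controls of the 2 models differ in age, in Cre genotype and in corn oil, and they are the same hearts as in the comparisons above. None of the 10 genes differed between them, with 0.02% of 14990 genes called higher and 0.0133% lower in Myh6-ctl. DESeq2 called none of the 10 either. In edgeR none had an unadjusted p under 0.05, beside 1700 of the 14990 genes. Dll4 was the one gene of the 10 whose 3 Myh6-ctl hearts lay below all EIIa-ctl hearts, beside 8.71% of all genes, with a log2 fold change of -0.31 (SE 0.14, adjusted p = 0.460).

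Other genes of the pathway were taken from role lists of 62 matched genes, of which 57 were tested in the EIIa and 56 in the Myh6 comparison. In EIIa-tg 5 were called higher and 5 lower, beside 8.65% and 8.3% of all genes tested, and in the hearts labelled Myh6-tg 6 higher and 3 lower, beside 8.96% and 9.38%. These counts are near the background, and the genes below are described one by one. The median log2 fold change over the lists was -0.07 and 0.18. Numbl, Myc and Ccnd1 were called in both models, in the same direction in each.

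The 2 shared target genes are also controlled by many signals other than Notch. Myc, a transcription factor of growth, rose from 6.31, 4.07 and 3.45 normalised CPM in EIIa-ctl to 23.4, 10.7 and 18.3 in EIIa-tg (log2 fold change 1.91, SE 0.31, adjusted p = 0.017). In the Myh6 model it rose from 4.86, 10.9 and 10.1 to 28.9, 23.5 and 25.9 (1.60, SE 0.31, adjusted p = 0.014). Ccnd1, which encodes cyclin D1 of the G1 phase, fell from 89.1, 91.4 and 90.9 to 19.7, 52.4 and 27.3 in EIIa-tg (log2 fold change -1.45, SE 0.31, adjusted p = 0.024). It fell from 117, 56.9 and 86.0 to 27.7, 25.4 and 28.9 in the hearts labelled Myh6-tg (-1.66, SE 0.27, adjusted p = 0.0083). Groups did not overlap for either gene in either model. Of all genes tested, 20.3% in the EIIa and 20.6% in the Myh6 comparison had 3 hearts above all controls. Another 20.8% and 19.6% had 3 hearts below them.

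Numbl, a relative of the Notch inhibitor Numb, rose as well. It had 5.74, 8.57 and 9.65 normalised CPM in EIIa-ctl and 14.0, 13.2 and 16.2 in EIIa-tg (log2 fold change 0.86, SE 0.20, adjusted p = 0.028). In Myh6-ctl it had 6.90, 11.7 and 11.5 and in the hearts labelled Myh6-tg 32.5, 34.2 and 34.5 (1.75, SE 0.24, adjusted p = 0.0051). In the Myh6 comparison Numbl, Myc and Ccnd1 kept their call under each of 18 alternative settings, leaving out each heart included. In the EIIa comparison they kept it in 10, 11 and 11 of 18.

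A further 3 genes placed in the list of other targets were called in EIIa-tg and not in the Myh6 comparison. The difference between models passed the test for none of them. Nrarp, a target that feeds back on Notch signalling and is known from sprouting vessels, fell from 24.7, 31.3 and 26.2 normalised CPM to 8.43, 17.7 and 7.91 (log2 fold change -1.27, SE 0.30, adjusted p = 0.030). Its value in the Myh6 model was -0.43 (adjusted p = 0.304), and the difference between models had an adjusted p of 0.323. Hes6 fell (-0.48, adjusted p = 0.035), and Snai1, a repressor known from epithelial to mesenchymal transition, rose (1.06, adjusted p = 0.043).

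Among the genes of receptor cleavage, Psenen, a subunit of γ-secretase, rose in EIIa-tg (log2 fold change 0.46, adjusted p = 0.037). Aph1b, another subunit (-0.51, adjusted p = 0.039), and Adam10, the protease of the first cut (-0.32, adjusted p = 0.047), fell. None of the 10 cleavage genes was called in the Myh6 model. Lfng, which adds sugars to Notch receptors, rose in EIIa-tg (0.47, adjusted p = 0.049), 1 of 5 glycosylation genes. Of the nuclear complex, 0 of 8 genes were called in either model. Rbpj itself stood at 0.30 (SE 0.10, adjusted p = 0.066) in EIIa-tg and at 0.39 (SE 0.22, adjusted p = 0.249) in the hearts labelled Myh6-tg, on the log2 scale.

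In the Myh6 comparison the list for trafficking and turnover, the longest of the role lists, had 4 genes called higher and 1 lower of 13, beside 8.96% and 9.38% of all genes. No test of the list was made. Mib1, a ubiquitin ligase that ligand-bearing cells need for signalling, rose from 37.9, 35.5 and 48.4 normalised CPM to 64.4, 64.0 and 70.6 (log2 fold change 0.71, SE 0.18, adjusted p = 0.031). Neurl1a, another ligase of ligands, rose from 1.09, 1.48 and 1.40 to 5.06, 3.41 and 3.54 (1.60, adjusted p = 0.019). Dtx4, of the Deltex family of ligases, rose from 13.4, 8.10 and 11.2 to 27.4, 20.2 and 25.7 (1.16, adjusted p = 0.016), and Dtx3l fell (-0.82, adjusted p = 0.038). Jag2, a Jagged ligand, fell from 48.7, 47.2 and 53.5 to 32.9, 26.0 and 24.0 (-0.85, SE 0.18, adjusted p = 0.018), 1 of 2 other ligands tested. In EIIa-tg the value of Jag2 was -0.42 (SE 0.13, adjusted p = 0.060), and it passed in DESeq2, at 0.032. Cir1, a corepressor of RBPJ, rose in the hearts labelled Myh6-tg (0.87, adjusted p = 0.042), 1 of 9 corepressors.

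These counts depended on single hearts, and so did the share of all genes called. In the main fits that share was 17% for the EIIa and 18.3% for the Myh6 comparison. In the EIIa comparison the number of pathway genes called was 0 without EIIa-ctl replicate 1 or 3 or EIIa-tg replicate 1 or 3. Those fits called 0%, 0.0065%, 0% and 0.877% of all genes. The number was 5 without EIIa-ctl replicate 2, beside 11.7% of all genes, and 15 without EIIa-tg replicate 2, beside 26.6%. It was also 0 with the replicate number as a block, beside 0.00671%, and 2 with all 12 hearts in one fit, beside 1.43%. In the Myh6 comparison it was 4 without Myh6-ctl replicate 1, beside 5.01%, and 5 without Myh6-ctl replicate 3, beside 10.3%. It was 4 without Myh6-tg replicate 2, beside 6.23%, and 3 without Myh6-tg replicate 3, beside 6.17%.

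**Figure D4:**
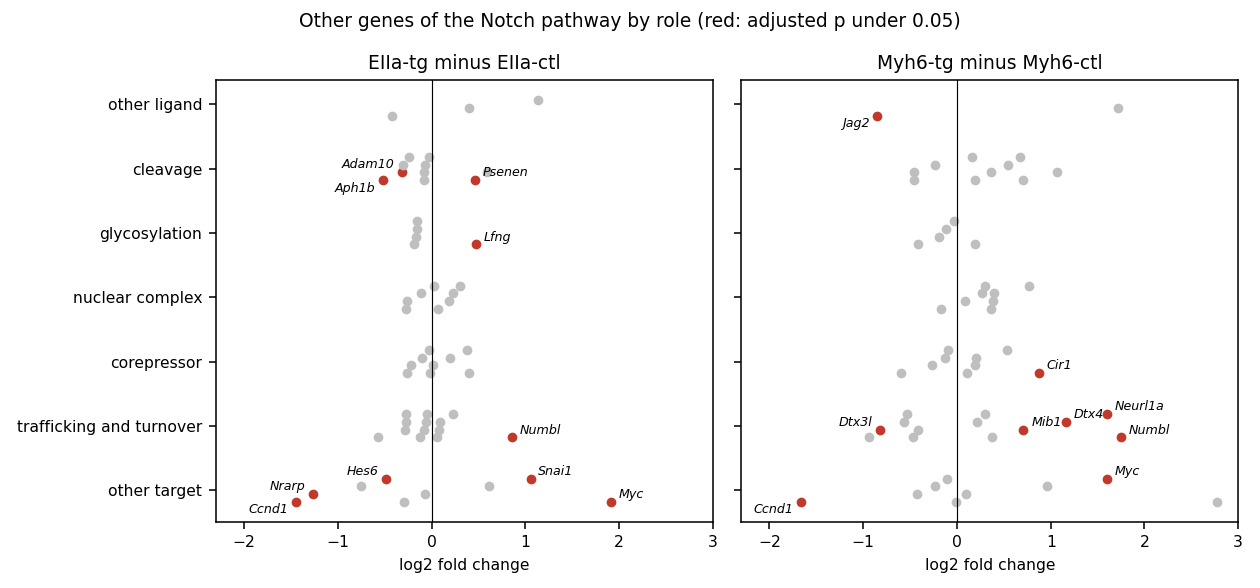
Log2 fold change (horizontal axis) of the other genes of the Notch pathway by role, for EIIa-tg against EIIa-ctl and for the hearts labelled Myh6-tg against Myh6-ctl, with 1 point per gene and red points named for an adjusted p under 0.05. Ccnd1 lies far to the left and Myc far to the right in both panels, and Numbl moves from 0.86 in the first to 1.75 in the second.

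Correlations between the 10 genes across the 12 hearts are given as a description, since the hearts share groups and depth. Pearson's r of log2 CPM was highest at 0.85 for Notch1 with Dll1, and was 0.83 for Notch1 with Notch3 and 0.71 for Notch2 with Notch4. It was lowest for Notch2 with Hes1, at -0.58. After removal of the group means it was highest for Notch1 with Notch4, at 0.88 against 0.0923 across the 12 hearts, and lowest for Notch3 with Hes1, at -0.87. Notch2 with Notch4 then had 0.82 and Notch1 with Dll1 had 0.78. Among 15929 genes, the one most like Dll4 was Apln, which encodes the peptide apelin of sprouting endothelium (r = 0.97), followed by the unnamed locus NewGene_6485 (0.96) and Brms1l (0.95). Apln had 30.3, 29.5 and 29.5 normalised CPM in EIIa-ctl and 1.53, 8.05 and 1.87 in EIIa-tg, with 18.0, 6.499 and 7.15 in Myh6-ctl and 3.27, 2.06 and 2.21 in the hearts labelled Myh6-tg. Notch2 was most like Iqgap1 (0.99), Tbc1d14 (0.96) and Hipk2 (0.96), and Notch1 was most like Stard9 (0.98), Sec14l1 (0.95) and NewGene_1568 (0.94). The most alike genes were also Gbp9 for Notch3, Ldlrad4 for Notch4, Mecom for Jag1, Thap12 for Dll1, Bend6 for Hey1 and Ecm2 for Heyl, with r between 0.87 and 0.95.

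Positions in GRCm38 place Notch1 at chr2:26457903-26516663, Notch2 at chr3:98013527-98150361, Notch3 at chr17:32120820-32166852 and Notch4 at chr17:34564268-34588503. Dll4 is at chr2:119325784-119335962 and Heyl at chr4:123233556-123249875. Genes on the opposite strand overlap Notch1, Notch3, Notch4, Dll1 and Dll4 in GENCODE M21. On the same strand, Gm42819 and Gm42820 overlap Notch2 and Mir6996 overlaps Notch1. None of these overlapping genes has a row in the count table. Strand cannot separate reads of the same-strand genes from those of their partners. Whether the counting used strand is not stated, so the same holds for the opposite-strand genes.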

How the data were processed

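Heart RNA of 12 mice was analysed. Per the paper's methods, libraries (NEBNext Ultra) were sequenced as 150 bp pairs on a NovaSeq and mapped with HISAT2 to GRCm38, and the submitters' notes name HISAT2 2.0.4, StringTie 2.2.1, DESeq2, GRCm39 and mm10. The authors deposited raw counts per gene and FPKM values, and the counting program, annotation and strand setting are not given in the sources used here.

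The 10 genes, the role lists and the marker lists were chosen with earlier results of these data known. Counts were filtered (filterByExpr), TMM-normalised and tested with glmQLFit and glmQLFTest of edgeR 4.0.16 in R 4.3.3, within the 6 hearts of a comparison or all 12 for the difference between models. P values were Benjamini-Hochberg adjusted over all genes, and called means an adjusted p under 0.05. The thresholds of the study were applied to the same edgeR fits, whereas the paper names DESeq2. Scripts were tested on simulated data. Alternatives used DESeq2 1.42.0 and limma 3.58.1. Named pathway genes were those called, at most the 4 with the lowest p per list and comparison, plus all called ligands and targets. Dtx3l was added after its value was seen, as were markers named as called.

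Same-numbered hearts deviated together in the Myh6 comparison (r = 0.28, 0.18 and 0.18). Replicate 1 of each group also held the Y-linked counts, while the labels name no shared litter, batch or day. Blocking by number changed no call of the 10 genes there. Precision rests on 3 hearts a group, and floors cover counting error only. Promoters came from RefSeq. The genes most like Hes1 are not reported here. Figures were drawn with matplotlib 3.10.9.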

Additional observations from a re-analysis of the deposited data

Results flagged for a closer look

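Mib1, a ubiquitin ligase of Notch ligands, was flagged because its change differed between the models by a test of the difference itself. Its log2 fold change was -0.06 (SE 0.10) in EIIa-tg and 0.71 (SE 0.18) in the hearts labelled Myh6-tg, a difference of 0.77 (SE 0.19, 95% interval 0.36 to 1.18, adjusted p = 0.044, edgeR quasi-likelihood test). The adjusted p stayed under 0.05 in 7 of 22 alternative settings and ranged from 0.0057 to 0.124. All 3 hearts labelled Myh6-tg lay above all Myh6-ctl hearts, beside 20.6% of all genes tested, and the EIIa groups overlapped. Of the hearts left out in turn, the call was kept without Myh6-ctl replicate 3 (adjusted p = 0.019) or Myh6-tg replicate 1 (0.025) and lost without each of the other 10.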

How the results depend on the processing

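Of the 10 genes, 1 was called in the EIIa comparison, against 2 in DESeq2 and 0 with all 12 hearts in one fit, with the replicate block, in the 3 limma fits of FPKM, at the thresholds of the study and with hearts 2 and 3 only. In the Myh6 comparison 0 were called, against 1 in DESeq2, with RLE size factors, with a CPM filter, without mitochondrial genes, with bias-adjusted dispersions and with hearts 2 and 3 only, and 2 with all 12 hearts. The 1 was Notch1 (adjusted p from 0.017 to 0.046), and with hearts 2 and 3 it was Heyl. Of all genes, the EIIa comparison called 17%, against 18.2% in DESeq2, 1.43% with all 12 hearts, 0.00671% with the block and 23.9%, 23.6% and 0.00513% in limma. The Myh6 comparison called 18.3%, against 17.9% to 21.8% in the listed settings with 1 call and 31.7% with all 12 hearts. Leaving out a heart gave 0 to 2, 0 to 2 and 0 to 1 in the EIIa, Myh6 and between-model comparisons. Those fits called 0% to 26.6%, 5.01% to 26.7% and 1.78% to 10.6% of all genes. The comparison of controls gave 0 in each setting, where at most 2.23% of all genes were called.

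Pathway genes called numbered 10 in the EIIa comparison, against 2 with all 12 hearts and 0 with the replicate block, in limma without a filter, with hearts 2 and 3 only and at the study's thresholds (0 to 15 without a heart). In the Myh6 comparison they numbered 9, against 17 with all 12 hearts, 19, 19 and 15 in limma, 5 with hearts 2 and 3 and 2 at the study's thresholds (3 to 8 without a heart, 11 with the block). Between models it was 1, against 6 in DESeq2, 0 without a filter, 2 with the CPM filter, 0 without mitochondrial genes, 3, 2 and 3 in limma and 0 at the study's thresholds (0 to 3 without a heart). Of all genes, the EIIa comparison called 17%, against 1.43% with all 12 hearts, 0.00671% with the block and 0.00513% in limma without a filter. The Myh6 comparison called 18.3%, against 31.7% with all 12 hearts, 32.7%, 32.4% and 16.9% in limma and 21.1% with hearts 2 and 3. Between models it was 3.92%, against 6.73% in DESeq2, 2.81% without a filter, 4.93% with the CPM filter and 5.76%, 4.87% and 2.94% in limma. No called pathway gene changed direction in any setting. The setting with hearts 2 and 3 only was chosen after seeing the data. The cause of these shifts was not tested.

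Direction changed for some of the 10 genes that were not called. In limma on log2(FPKM + 1), with and without a filter, and on log2(FPKM + 0.1), the EIIa values were 0.112 and 0.130 for Notch3, 0.0323 and 0.0499 for Jag1, 0.00299 and 0.00393 for Hey1, and 0.0706 and 0.0765 for Heyl. Hey1 became 0.0766 and 0.0840 in the Myh6 comparison and 0.0736 and 0.0801 between models. FPKM shifts the median of all genes to 0.16 and 0.34 in the EIIa and Myh6 comparisons on log2(FPKM + 1), and the share of calls that are higher from 51.0% to 78.0% and from 48.8% to 78.7%, and from 42.1% to 69.1% between models. With all 12 hearts in one fit that share was 77.5% of 227 calls in the EIIa comparison. Hes1 became -0.0469 with EIIa hearts 2 and 3 only and -0.00692 between models without mitochondrial genes, where Jag1 became -0.0107 in the Myh6 comparison. Notch3 between controls became -0.0173 with the block and -0.0109 on log2(FPKM + 0.1).

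Without 1 heart, values ranged as follows. In the EIIa comparison Heyl ranged from -0.18 to 0.0195 and Hes1 from -0.0443 to 0.12. In the Myh6 comparison Jag1 ranged from -0.24 to 0.27 and Hes1 from -0.0889 to 0.35. Between models Notch2 ranged from -0.0304 to 0.60, Jag1 from -0.0836 to 0.43, Hey1 from -0.26 to 0.0916 and Hes1 from -0.13 to 0.31. Between controls Notch1 ranged from -0.11 to 0.32, Notch2 from -0.0045 to 0.64, Notch3 from -0.12 to 0.28, Notch4 from -0.39 to 0.18 and Heyl from -0.10 to 0.0300.

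Same-numbered hearts of the EIIa comparison did not deviate together (r = 0.07, -0.08 and -0.08), so the numbers were not taken as pairs there, although replicate 1 of both groups held the Y-linked counts. The block left 1 call among all its genes and took the adjusted p of Dll4 to 0.063. With 3 hearts a group, intervals of the Myh6 comparison are too wide to exclude 2-fold changes of 5 of the 10 genes.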
